A study of Clytia hemisphaerica and Astroides calycularis and Pocillopora acuta with 16 samples.

Results

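Uncut planulae of Clytia hemisphaerica were set against the cut ends of planulae of the same species, in 6 of the 16 libraries of the series. The members were chosen by their labels alone: 2 libraries of uncut larvae, 2 of aboral ends and 2 of oral ends. The larvae that were cut were late 2-day planulae, and the methods give no separate age for uncut larvae. All larvae were bred from adults of the laboratory Z strain, and the labels name no allele or agent for any group. Per the study's methods, each library was made from a pool of many cut ends or many whole larvae, and the pools of both ends and of whole larvae are listed as a set for each of the 2 biological replicates. Larvae to be cut had been anesthetized on ice, cut with a tungsten wire loop in several rounds, pooled, lysed and frozen. Whether uncut larvae were kept on ice for as long is not given in the sources used here, so cutting, cooling and waiting time cannot be told apart in any difference between uncut and cut larvae.

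The planula is the ciliated larva of cnidarians, and in Clytia it swims with the aboral end in front and later settles on that end to form the polyp colony. The aboral end carries neurosecretory cells and neurons that make short amidated peptides, and is marked by transcription factors such as Six3/6 and FoxQ2. The oral end is the site of Wnt signaling and of T-box gene expression. A whole larva holds both ends, so a gene confined to one end is diluted by the other in an uncut library, and a gene whose level depends only on the place along the axis should lie between the ends.

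The libraries held between 30129270 and 31043438 counts each, over 18755 gene models, of which 15599 had enough counts to be tested. Levels are given as CPM, read counts relative to library sizes adjusted by the TMM method, which sets most genes equal between libraries. The mitochondrial gene model XLOC_MITO lay at 17.04 and 20.6 CPM in uncut larvae, 21.5 and 18.4 CPM in aboral ends and 18.1 and 16.8 CPM in oral ends, with overlapping groups. Each pair of replicates differed by more than sampling noise, with a chi-square of 17.2 to 18.1 per degree of freedom, so no library was a copy of another.

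The labels were checked first on a gene known to mark the aboral end. The fibroblast growth factor gene FGFa1 (XLOC_032698) lay at 41.5 and 40.8 CPM in uncut larvae, at 92.1 and 106 CPM in aboral ends and at 0.255 and 0.254 CPM in oral ends. At the other end, the gene XLOC_044794, which encodes a secreted protein with a WIF domain, the part of Wnt inhibitory factor that binds Wnt, had 34.4 and 34.03 CPM in uncut larvae, 1.45 and 1.66 CPM in aboral ends and 68.3 and 67.2 CPM in oral ends. For both genes the uncut libraries lay between the ends, and no pair of groups overlapped. XLOC_044794 was chosen with earlier results of these data known, so its order describes it and does not check the labels.

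To ask what the ends shared against whole larvae, each aboral library was added in silico to the oral library of the same replicate at equal depth, and this recombined library was compared with the uncut library. Most genes returned to the level of the whole larva. The log2 fold change of uncut against recombined larvae had a median of 0.003 over 15599 genes, 90% of genes fell between -0.32 and 0.27, and 99.6% differed by less than 2-fold. The interval of a single gene was wide, with a median margin of 0.29 on the log2 scale at 95%. Where a gene went beyond 2-fold, it was more often lower in uncut larvae (44 genes) than higher (12 genes).

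**Figure D1:**
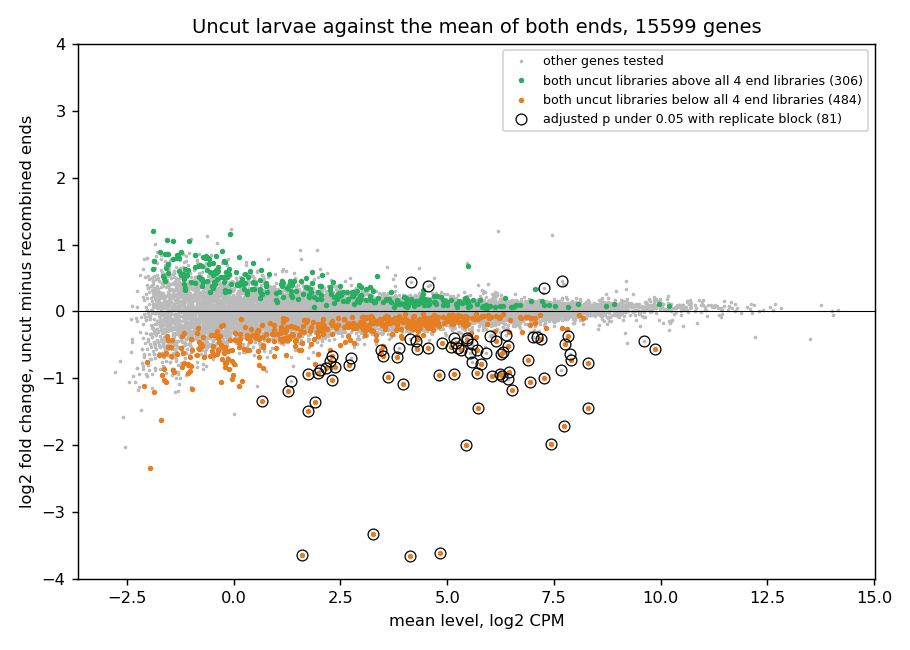
Log2 fold change of uncut larvae against recombined ends (vertical axis) by mean level in log2 CPM (horizontal axis), 1 point per gene of 15599. Green and orange points mark the 306 and 484 genes with both uncut libraries above or below all 4 end libraries, circles the 81 genes called with the replicate as a block, and the largest differences, down to -3.65, lie below 0.

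No gene passed an adjusted p of 0.05 in edgeR's quasi-likelihood test of 2 uncut against 2 recombined libraries (0 of 15599 genes, 0%). The smallest adjusted p was 0.069, and 362 genes (2.32%) had an unadjusted p under 0.05, of which 272 were lower and 90 higher in uncut larvae. DESeq2 called 31 genes lower and 0 higher on the same libraries. The libraries of a number are listed as 1 biological replicate, and with the replicate number as a block edgeR called 77 genes lower in uncut larvae (0.494%) and 4 higher (0.0256%), on 1 residual degree of freedom. In simulated libraries of this design the blocked fit made 28 false calls, a higher rate than its threshold allows. It recovered all 67 genes changed 1.5-fold and all 67 changed 2-fold. The fit without the block made 0 false calls but recovered 0 of 67 genes changed 1.5-fold and 39 of 67 changed 2-fold. The simulated counts had a replicate effect shared by same-numbered libraries and the spread of a blocked fit. Better recovery with the block was thus built in and is no support for it. Only genes with high counts were changed, so recovery of genes with few reads was not tested. All 31 genes of DESeq2 were among the 77 genes called lower with the block. The genes described next were named after their values were seen, because the rule for named genes, which asked for a call without the block, selected 0 genes.

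Of the 77 genes, 55 had both uncut libraries below all 4 end libraries, and 22 lay within the range of the ends. The position outside the ends and the block test rest on the same libraries, so neither is support for the other. Over all genes, both uncut libraries lay below all end libraries for 484 genes (3.10%) and above them for 306 (1.96%). The gap was mostly small, with the lowest end library a median 1.05-fold over the higher uncut library, and the lower uncut library a median 1.03-fold over the highest end library. A gap over 1.5-fold in genes of at least 10 CPM was present in 11 genes below the ends and in 0 above them.

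The gene models that differed most had no name or protein domain in the study's annotation. It covers 2100 of 18755 gene models, so a model without an entry may still encode a known domain. XLOC_034505 had 2.86 and 2.22 CPM in uncut larvae, against 39.2 and 16.4 CPM in aboral ends and 49.3 and 24.4 CPM in oral ends. MSTRG.15754 had 4.30 and 4.24 CPM in uncut larvae, 67.2 and 24.6 CPM in aboral ends and 74.1 and 45.2 CPM in oral ends. Both were therefore scarce in whole larvae and clearly present in every end library, at either end. Their log2 fold changes of uncut against recombined larvae were -3.65 ± 0.40 (SE, n = 2 against 2, edgeR adjusted p = 0.070, 2.5e-07 with the block) and -3.61 ± 0.34 (SE, n = 2 against 2, edgeR adjusted p = 0.069, 6.9e-07 with the block).

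These genes were also compared with each end taken alone, without the block. XLOC_034505 was lower in uncut larvae than in aboral ends by a log2 fold change of -3.45 ± 0.53 (SE, n = 2 against 2, edgeR adjusted p = 0.0056) and than in oral ends by -3.85 ± 0.52 (SE, n = 2 against 2, edgeR adjusted p = 0.0027). MSTRG.15754 gave -3.43 ± 0.48 against aboral ends (SE, edgeR adjusted p = 0.0044) and -3.80 ± 0.48 against oral ends (SE, edgeR adjusted p = 0.0022). Both comparisons share the uncut libraries and are not independent. The genes were named for lying below all end libraries, so a lower level than at each end follows from the choice.

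A further pair of unannotated models was low in uncut larvae but differed between the uncut replicates. XLOC_006729 lay at 0.513 and 2.95 CPM in uncut larvae, 13.5 and 27.3 CPM in aboral ends and 13.8 and 15.7 CPM in oral ends. XLOC_006558 lay at 0.0963 and 0.795 CPM in uncut larvae, where replicate 1 had 3 reads, at 3.09 and 6.16 CPM in aboral ends and at 7.14 and 6.12 CPM in oral ends. Both uncut libraries were below all end libraries for both genes, with replicate 1 the lower of the uncut libraries. Their log2 fold changes were -3.33 ± 0.54 and -3.65 ± 0.57 (SE, n = 2 against 2), with edgeR adjusted p of 0.299 and 0.190, and of 3.1e-05 and 0.00015 with the block.

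Of the next unannotated genes, XLOC_030572 had 15.1 and 19.4 CPM in uncut larvae, 85.1 and 51.5 CPM in aboral ends and 88.3 and 54.1 CPM in oral ends. XLOC_010086 had 71.9 and 66.1 CPM in uncut larvae, 385 and 185 CPM in aboral ends and 336 and 198 CPM in oral ends. XLOC_003694 had 103 and 93.5 CPM in uncut larvae, 484 and 180 CPM in aboral ends and 413 and 227 CPM in oral ends. In each of these genes the uncut libraries were close to each other, and the ends of replicate 1 were the highest at both ends. Their log2 fold changes were -2.0 ± 0.23, -1.99 ± 0.26 and -1.72 ± 0.31 (SE, n = 2 against 2), with edgeR adjusted p of 0.00015, 3.1e-05 and 0.00047 with the block and of 0.093, 0.176 and 0.516 without it.

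**Figure D2:**
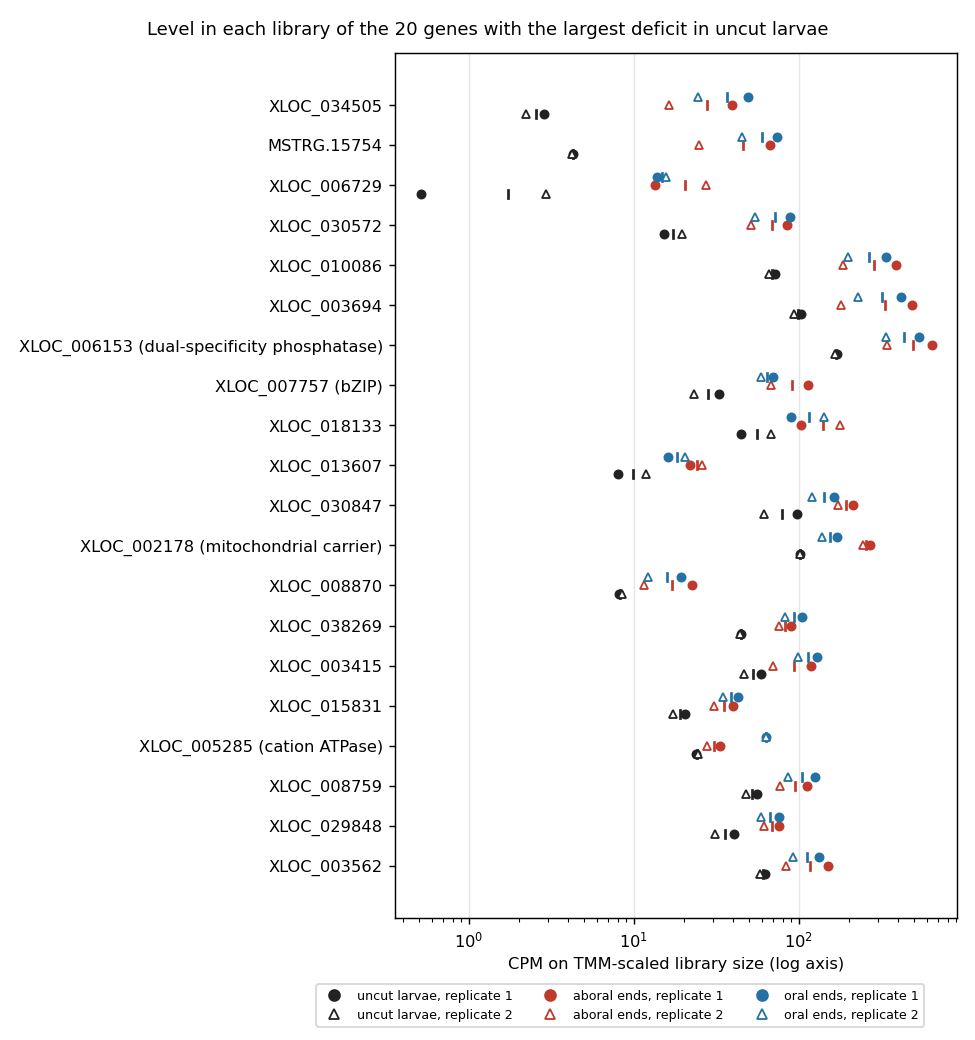
Level in each of the 6 libraries, in CPM on a log axis, of the 20 genes with the largest deficit in uncut larvae among those called with the replicate block, below all 4 end libraries and at 10 CPM or more in the ends. Filled circles are replicate 1, open triangles replicate 2 and short bars the group mean, and the black uncut points lie left of the red aboral and blue oral points in every row.

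Of the 55 genes, 8 had a protein domain in the study's annotation, as had 1644 of the 15599 genes tested. Regulatory proteins were among the 8. XLOC_006153 encodes a protein with a dual-specificity phosphatase domain and a rhodanese-like domain, an arrangement found in the phosphatases that switch off MAP kinases. It lay at 169 and 166 CPM in uncut larvae, at 639 and 340 CPM in aboral ends and at 532 and 338 CPM in oral ends, with the uncut libraries below all end libraries. Its log2 fold change was -1.45 ± 0.22 (SE, n = 2 against 2, edgeR adjusted p = 0.299, 0.00025 with the block). Without the block, it was lower in uncut larvae than in aboral ends by -1.55 ± 0.29 (SE, edgeR adjusted p = 0.014). The value against oral ends was -1.38 ± 0.29 (SE, edgeR adjusted p = 0.028). This direction also follows from how the gene was chosen.

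Basic leucine zipper (bZIP) proteins are transcription factors that bind DNA as dimers, and include the Maf, Jun and Fos types. XLOC_007757, with bZIP and Maf domains, had 32.8 and 23.2 CPM in uncut larvae, 113 and 68.0 CPM in aboral ends and 69.9 and 58.6 CPM in oral ends. XLOC_038186, a more abundant gene with a Maf-type domain, had 785 and 710 CPM in uncut larvae, 1207 and 925 CPM in aboral ends and 1235 and 1082 CPM in oral ends. In both genes the ends lay above the uncut libraries with no overlap. The log2 fold change was -1.45 ± 0.21 for XLOC_007757 (SE, n = 2 against 2, edgeR adjusted p = 0.254, 6.9e-07 with the block) and -0.56 ± 0.12 for XLOC_038186 (SE, n = 2 against 2, edgeR adjusted p = 0.836, 0.0076 with the block).

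The annotation held 6 bZIP genes, and the other 4 were not called. XLOC_012422 was the nearest, at 1060 and 1160 CPM in uncut larvae, 1245 and 1103 CPM in aboral ends and 1354 and 1340 CPM in oral ends, a log2 fold change of -0.17 (edgeR adjusted p = 0.836 with the block). The remaining XLOC_041159, XLOC_028709 and MSTRG.10665 had log2 fold changes of 0.01, 0.00 and 0.04. Members of the same family thus had unlike levels relative to the ends, and whether they differ from each other was not tested.

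XLOC_041383 encodes a protein with C2H2 zinc fingers, a domain common in DNA-binding proteins. Its levels were 197 and 159 CPM in uncut larvae, 388 and 293 CPM in aboral ends and 282 and 222 CPM in oral ends. XLOC_041191, of the Ras family of small GTPases, which relay signals inside the cell, had 66.8 and 52.9 CPM in uncut larvae, 122 and 94.5 CPM in aboral ends and 88.3 and 70.2 CPM in oral ends. The aboral ends were the highest group for both. Log2 fold changes against recombined larvae were -0.72 ± 0.15 and -0.63 ± 0.15 (SE, n = 2 against 2), with edgeR adjusted p of 0.00020 and 0.00038 with the block, and of 0.747 and 0.984 without it.

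Transporters made up the other annotated members. XLOC_002178, a mitochondrial carrier protein of the family that moves metabolites across the inner mitochondrial membrane, lay at 102 and 102 CPM in uncut larvae, 269 and 244 CPM in aboral ends and 171 and 138 CPM in oral ends. XLOC_005285, a cation ATPase that belongs to the ion pumps, lay at 23.9 and 24.4 CPM in uncut larvae, 33.2 and 27.7 CPM in aboral ends and 63.4 and 63.2 CPM in oral ends. The carrier was highest aborally and the pump orally, and in both the uncut libraries were below the lower end. Their log2 fold changes were -0.99 ± 0.10 and -0.94 ± 0.08 (SE, n = 2 against 2, edgeR adjusted p = 0.069 for each, 3.1e-05 and 3.7e-05 with the block). XLOC_029294, a sodium/phosphate cotransporter, had 178 and 181 CPM in uncut larvae and 226 to 304 CPM in the 4 end libraries, a log2 fold change of -0.49 ± 0.09 (SE, n = 2 against 2, edgeR adjusted p = 0.541, 0.0065 with the block).

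Some unannotated genes had close replicates and a smaller difference. XLOC_010859 had 88.7 and 90.1 CPM in uncut larvae, 153 and 156 CPM in aboral ends and 147 and 140 CPM in oral ends. XLOC_013987 had 40.9 and 40.3 CPM in uncut larvae, 75.3 and 72.8 CPM in aboral ends and 71.6 and 62.9 CPM in oral ends. In both genes all 4 end libraries were alike and well apart from the uncut libraries, with log2 fold changes of -0.72 ± 0.08 and -0.78 ± 0.08 (SE, n = 2 against 2, edgeR adjusted p = 0.070 for each, 0.00014 and 0.00011 with the block).

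The 55 genes included some higher at either end and covered a wide range of levels. Their mean level in uncut larvae ran from 0.446 to 748 CPM with a median of 28.01 CPM. The aboral mean was the higher end in 34 of the 55, and 7 of the 55 were called between the ends in the fit of 6 libraries. The same shares over all genes are not given here, so whether the 55 differ from other genes in this was not tested. Against aboral ends 44 of the 55 were called lower in uncut larvae, where 7.48% of all genes were, and against oral ends 30, where 1.13% were. The members were chosen on the same uncut and end libraries, so these counts describe them and test nothing.

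The size of the difference was not the same in both replicates. The ends exceeded the uncut library of the same replicate by a median of 1.96-fold in replicate 1 and 1.67-fold in replicate 2, and the ratio was larger in replicate 1 for 47 of the 55 genes. The lowest ratio of any of these genes was 1.33 in replicate 1 and 1.23 in replicate 2, and a ratio above 1 in both replicates follows from how the genes were chosen. For MSTRG.15754 the ratio was 16.4 in replicate 1 and 8.24 in replicate 2, and for the dual-specificity phosphatase XLOC_006153 it was 3.47 and 2.05. For the bZIP gene XLOC_007757 the ratios were close, at 2.79 and 2.73.

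Replicate 1 was high in the ends rather than low in uncut larvae. Among the 55 genes the level in replicate 1 over that in replicate 2 had a median of 1.24 in aboral ends, 1.19 in oral ends and 1.06 in uncut larvae, beside medians of 0.991, 1.00 and 0.997 over all genes. In 43 of the 55 both ends were higher in replicate 1, as they were in 33.5% of all genes. XLOC_018133 had the opposite order, with 44.4 and 67.6 CPM in uncut larvae, 102 and 179 CPM in aboral ends and 89.9 and 141 CPM in oral ends. Whether day of cutting or handling time differed between replicates is not given in the sources used here, and their part in this was not tested.

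**Figure D3:**
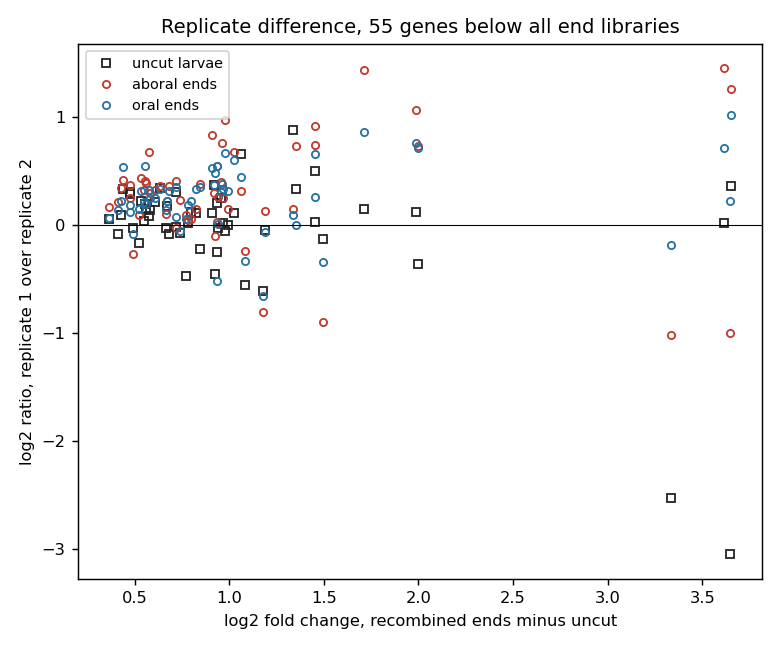
Log2 ratio of replicate 1 over replicate 2 within each group (vertical axis) by the log2 excess of recombined ends over uncut larvae (horizontal axis), for the 55 genes called with the block and below all end libraries. Red and blue circles are aboral and oral ends and black squares uncut larvae. The median ratio is 1.24 in aboral ends, 1.19 in oral ends and 1.06 in uncut larvae, and the lowest black squares belong to XLOC_006558 and XLOC_006729.

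The 22 called genes that lay within the range of the ends included 5 with at least a 4-fold difference between the ends. FGF and fascin domains are encoded by XLOC_017006, at 15.6 and 17.1 CPM in uncut larvae, 42.4 and 42.5 CPM in aboral ends and 2.36 and 2.73 CPM in oral ends. XLOC_016427, with the DAN domain of secreted antagonists of BMP signals, lay at 8.79 and 8.58 CPM in uncut larvae, 25.3 and 25.6 CPM in aboral ends and 0.605 and 0.666 CPM in oral ends. MSTRG.3476, with the Wnt-binding domain of Frizzled, lay at 42.2 and 36.8 CPM in uncut larvae, 99.9 and 120 CPM in aboral ends and 2.33 and 2.44 CPM in oral ends. The uncut libraries were thus between the ends but under their midpoint, by log2 fold changes of -0.44 ± 0.10, -0.57 ± 0.11 and -0.49 ± 0.11 (SE, n = 2 against 2, edgeR adjusted p = 0.027, 0.017 and 0.046 with the block, and 0.747, 0.510 and 0.898 without it).

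The 4 genes called higher in uncut larvae with the block all lay within the range of the ends. XLOC_023644 had 25.4 and 27.3 CPM in uncut larvae, 5.32 and 4.27 CPM in aboral ends and 34.7 and 37.6 CPM in oral ends, and its log2 fold change was 0.38 ± 0.09 (SE, n = 2 against 2, edgeR adjusted p = 0.984, 0.044 with the block). XLOC_007866, XLOC_006002 and XLOC_003257 varied more between replicates than between uncut and recombined larvae, with log2 fold changes of 0.45 ± 0.40, 0.44 ± 0.27 and 0.35 ± 0.32 (SE, n = 2 against 2). With the block in the fit of all 6 libraries, 1 of the 4 was called, beside 72 of the 77 lower genes.

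Genes with both uncut libraries above all end libraries were not called, with or without the block, and their differences were small. Among those of at least 10 CPM, XLOC_045837 stood highest, at 43.1 and 65.9 CPM in uncut larvae, 39.4 and 26 CPM in aboral ends and 42.9 and 29.5 CPM in oral ends, a log2 fold change of 0.68. XLOC_007657 followed with 10.4 and 13.6 CPM in uncut larvae and 6.91 to 9.53 CPM in the ends, and a log2 fold change of 0.53. Phosphoglycerate kinase (XLOC_011191), an enzyme of glycolysis, had 127 and 133 CPM in uncut larvae and 116 to 120 CPM in the ends, a log2 fold change of 0.15 (edgeR adjusted p = 0.723 with the block).

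The place of whole larvae between the ends was read from genes that differed between the ends by at least 4-fold with an adjusted p under 0.05. A position of 0 is the mean of oral ends and 1 the mean of aboral ends, and a larva made of equal parts of both would lie at 0.5. Over 477 genes higher at the aboral end the median position was 0.417 in uncut replicate 1 (quartiles 0.357 and 0.470) and 0.426 in uncut replicate 2 (quartiles 0.368 and 0.484). Over 125 genes higher at the oral end it was 0.504 in replicate 1 (quartiles 0.427 and 0.591) and 0.432 in replicate 2 (quartiles 0.325 and 0.540). Of all 602 genes, 598 lay between the ends in replicate 1 and 593 in replicate 2. Aboral-high genes of both libraries were thus slightly nearer the oral end, whereas the replicates differed for oral-high genes by more than the distance of either from 0.5.

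**Figure D4:**
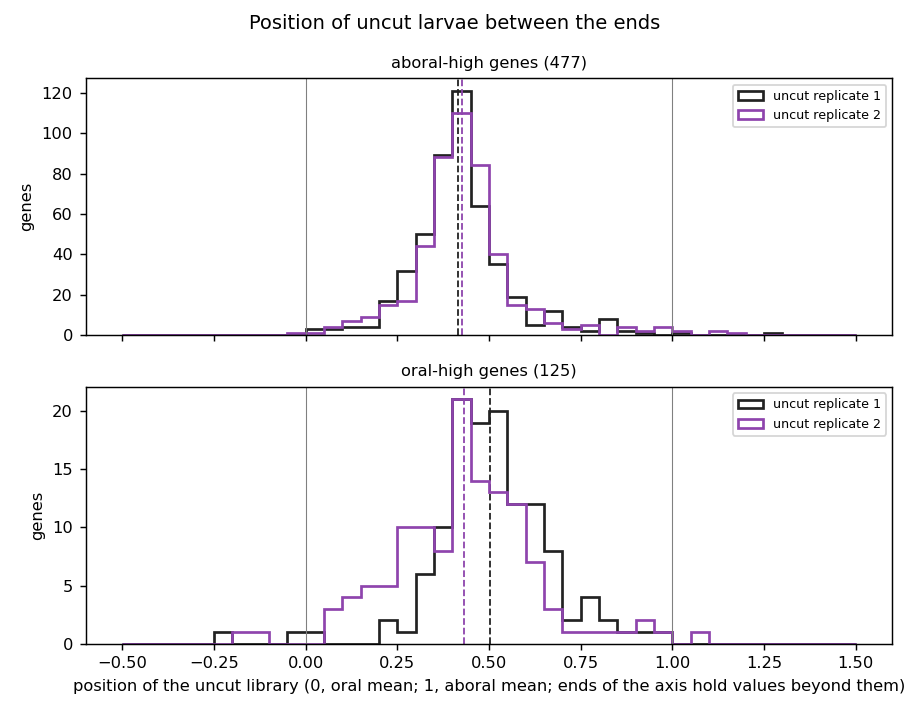
Number of genes (vertical axis) by position of each uncut library between the ends (horizontal axis), for 477 aboral-high and 125 oral-high genes, with 0 the oral mean and 1 the aboral mean. Dashed lines are the medians, at 0.417 and 0.426 for aboral-high genes and 0.504 and 0.432 for oral-high genes, and nearly all genes lie between 0 and 1.

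The place of the cut, which was not measured here, and the RNA content of each end cannot be told apart in this position, nor can fewer cells of a type and less RNA per cell in bulk libraries. When the shares of the recombined libraries were set to the median position over both directions, 42.8% aboral, edgeR called 4 genes higher and 66 lower with the block, in place of 4 and 77. Of the 55 genes below all end libraries, 51 were among those 66. This share was read from the uncut libraries themselves, over the 602 genes above, most of them aboral-high. Values given below at this share therefore describe the lists, and those of lists that hold such genes are no independent check.

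Uncut larvae were next compared with each end taken alone. Against aboral ends, 735 genes were higher (4.71%) and 1167 lower in uncut larvae (7.48%), and with the block 1870 were higher and 2380 lower. Against oral ends, 902 genes were higher (5.78%) and 176 lower (1.13%), and with the block 1748 were higher and 927 lower. Uncut larvae thus had fewer genes lower than the oral end than lower than the aboral end, and both comparisons used the same uncut libraries. More genes were at least 4-fold higher at the aboral end (477) than at the oral end (125), so these counts do not tell which end a whole larva resembled. Over all genes the median log2 fold change was -0.0104 against aboral and -0.0103 against oral ends.

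Among the 6 aboral axis genes, all members lay between the ends in both uncut libraries. FoxQ2a (XLOC_014597), a forkhead factor of the aboral pole, had 54.3 and 59.2 CPM in uncut larvae, 122 and 154 CPM in aboral ends and 8.38 and 9.89 CPM in oral ends. Its log2 fold change was -1.28 ± 0.12 against aboral ends (SE, n = 2 against 2, edgeR adjusted p = 0.00087) and 2.63 ± 0.14 against oral ends (SE, n = 2 against 2, edgeR adjusted p = 1.2e-05). Frizzled 5/8 (XLOC_039886), a Wnt receptor of the aboral territory, had 55.8 and 58.7 CPM in uncut larvae, 116 and 146 CPM in aboral ends and 2.01 and 1.87 CPM in oral ends. Groups did not overlap for either gene.

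The homeodomain gene XLOC_038055 was less steep, at 73.3 and 81.3 CPM in uncut larvae, 129 and 164 CPM in aboral ends and 41.6 and 37.1 CPM in oral ends. Dickkopf (XLOC_006543), a secreted Wnt antagonist, was scarce, with 4.14 and 4.94 CPM in uncut larvae, 8.31 and 13.3 CPM in aboral ends and 0.542 and 0.444 CPM in oral ends. Six3/6 (XLOC_010764), a homeodomain factor of the aboral pole, had 30 and 29 reads in uncut larvae, 62 and 57 in aboral ends and 2 and 0 in oral ends. All 6 were higher in uncut larvae than in oral ends and 5 were lower than in aboral ends, the exception being Six3/6 at -1.04 ± 0.30 (SE, n = 2 against 2, edgeR adjusted p = 0.057, 0.015 with the block).

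Against recombined larvae the aboral axis genes had log2 fold changes of -0.05 to -0.36, all 6 below 0 with a median of -0.26, where 49.2% of all genes were below 0 and their median was 0.003. None was called (0 of 6, with or without the block). FoxQ2a came nearest at -0.36, with a 95% interval of -0.64 to -0.08 (edgeR adjusted p = 0.063 with the block, 0.038 with the block in the fit of 6 libraries). With shares at 42.8% aboral the median of the list was -0.07, with 4 below 0. Of the 6 genes, 5 were among those that set this share, so a median nearer 0 follows from that choice.

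Of 6 oral axis genes, all were higher in uncut larvae than in aboral ends and lower than in oral ends. The T-box gene XLOC_044272 had 61.9 and 48.7 CPM in uncut larvae, 11.1 and 9.55 CPM in aboral ends and 106 and 104 CPM in oral ends. The HMG-box gene XLOC_040606, of a family of DNA-binding proteins, had 6.45 and 5.90 CPM in uncut larvae, 3.05 and 3.45 CPM in aboral ends and 12.4 and 10.5 CPM in oral ends. XLOC_017925, a gene with a pectin acetylesterase domain, had 15.05 and 12.7 CPM in uncut larvae, 6.47 and 5.72 CPM in aboral ends and 24.95 and 20.6 CPM in oral ends. Against recombined larvae the list had a median log2 fold change of -0.02, with 2 members above and 4 below 0 and 0 called. With shares at the median position of uncut libraries the median was -0.18, with 1 member above and 5 below 0. The adjusted share thus moved the median of this list away from 0.

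Wnt ligands, secreted signals of the oral territory, numbered 8, of which 2 were also oral axis genes. The most abundant, XLOC_001931, had 419 and 424 CPM in uncut larvae, 116 and 113 CPM in aboral ends and 661 and 653 CPM in oral ends. XLOC_031686 had 46.9 and 48.2 CPM in uncut larvae, 2.10 and 2.74 CPM in aboral ends and 79.0 and 80.2 CPM in oral ends. XLOC_035748 was nearly confined to the oral end, with 13.5 and 15.04 CPM in uncut larvae, 0.230 and 0.0339 CPM in aboral ends and 30.8 and 31.3 CPM in oral ends. All 3 were intermediate in uncut larvae without overlap.

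All 8 Wnt genes were higher in uncut larvae than in aboral ends, and 4 were lower than in oral ends, or 6 with the block. The remaining XLOC_000650, XLOC_015404, XLOC_041060, MSTRG.15745 and MSTRG.16443 had 2.45 to 7.54 CPM in uncut larvae. Against recombined larvae the median log2 fold change of the list was 0.25, with 6 above and 2 below 0 and 0 called. The interval of XLOC_031686 was 0.04 to 0.41 at an estimate of 0.23 (edgeR adjusted p = 0.334 with the block), and with shares at 42.8% aboral the median of the list was 0.08.

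**Figure D5:**
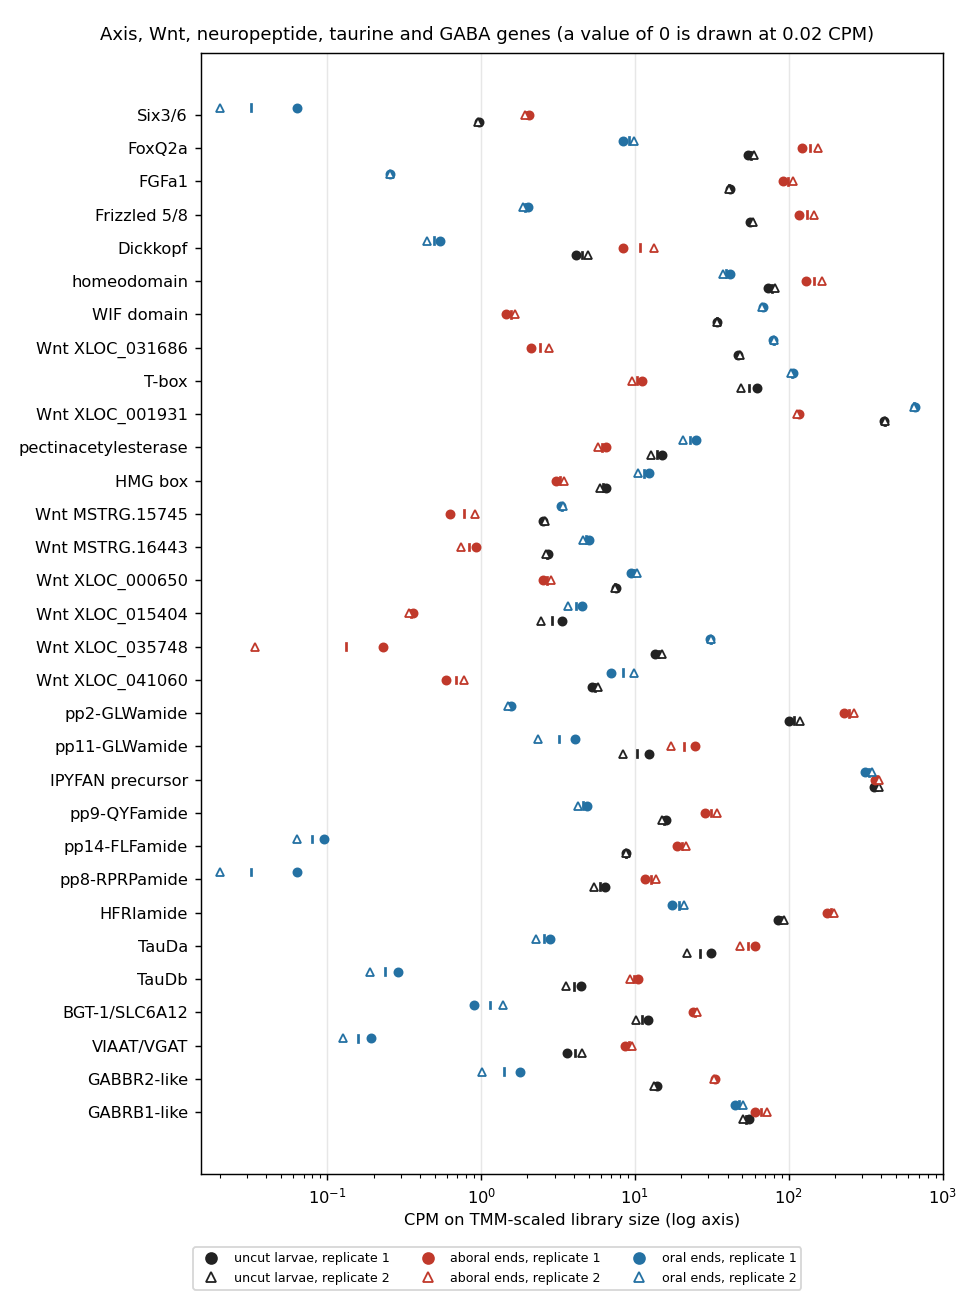
Level in each library, in CPM on a log axis with 0 drawn at 0.02, of the axis, Wnt, neuropeptide precursor, taurine and GABA genes. Filled circles are replicate 1, open triangles replicate 2 and short bars the group mean, and the black uncut points lie between red aboral and blue oral points in all rows but those of the IPYFAN precursor and GABRB1-like, where they overlap those of an end.

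Neuropeptide precursors are cut into short peptides that neurons release, and GLWamides are known to trigger settlement of hydrozoan larvae. pp2-GLWamide (XLOC_017096) had 100.0 and 118 CPM in uncut larvae, 229 and 267 CPM in aboral ends and 1.56 and 1.49 CPM in oral ends. HFRIamide (XLOC_034880) had 85.4 and 92.7 CPM in uncut larvae, 177 and 198 CPM in aboral ends and 17.5 and 20.95 CPM in oral ends. pp9-QYFamide (XLOC_041442) had 15.8 and 15.1 CPM in uncut larvae, 28.4 and 33.9 CPM in aboral ends and 4.88 and 4.28 CPM in oral ends. Each was intermediate in whole larvae, without overlap between groups.

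The precursors pp14-FLFamide (XLOC_004021) and pp8-RPRPamide (XLOC_008764) were almost absent from oral ends, with 3 and 2 reads and with 2 and 0 reads. In uncut larvae they had 274 and 265 reads and 199 and 164 reads, and in aboral ends 572 and 632 reads and 353 and 405 reads. pp11-GLWamide (MSTRG.5804) had 12.3 and 8.42 CPM in uncut larvae, 24.6 and 17.2 CPM in aboral ends and 4.08 and 2.35 CPM in oral ends. The precursor of the IPYFAN peptide (XLOC_012580) was the exception, at 357 and 388 CPM in uncut larvae, 365 and 386 CPM in aboral ends and 313 and 347 CPM in oral ends, with overlapping groups.

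Of the 7 precursors, 6 were lower in uncut larvae than in aboral ends and 6 higher than in oral ends. Against recombined larvae the median log2 fold change was -0.18, with 6 below 0 and 0 called. The 95% interval was widest for pp11-GLWamide, from -0.74 to 0.33, and for pp2-GLWamide ran from -0.45 to 0.08. With shares at 42.8% aboral the median was 0.04.

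Genes of taurine and GABA, small amino acids that act as signals, showed the same order. TauDa (MSTRG.12764), of a family of taurine dioxygenases that break taurine down in bacteria, had 31.1 and 21.6 CPM in uncut larvae, 60.4 and 47.9 CPM in aboral ends and 2.80 and 2.28 CPM in oral ends. The transporter gene BGT-1/SLC6A12 (XLOC_030751), which carries GABA and betaine in mammals, had 12.2 and 10.1 CPM in uncut larvae, 23.9 and 25.3 CPM in aboral ends and 0.892 and 1.39 CPM in oral ends. The receptor gene GABBR2-like (XLOC_003734) had 13.99 and 13.4 CPM in uncut larvae, 33.1 and 32.6 CPM in aboral ends and 1.78 and 1.01 CPM in oral ends. TauDb (XLOC_041385) and the vesicular transporter VIAAT/VGAT (XLOC_033747) were scarce, at 3.58 to 4.51 CPM in uncut larvae.

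The channel subunit gene GABRB1-like (XLOC_000357) differed little along the axis, with 55.1 and 50.2 CPM in uncut larvae, 60.1 and 71.7 CPM in aboral ends and 44.8 and 50.5 CPM in oral ends. It was called lower in uncut larvae than in aboral ends only with the block (log2 fold change -0.32 ± 0.11, SE, n = 2 against 2, edgeR adjusted p = 0.098, 0.021 with the block). The other 5 genes of the list were lower than in aboral ends and higher than in oral ends. Against recombined larvae all 6 were below 0, with a median of -0.18 and 0 called, and 3 were below 0 with shares at 42.8% aboral.

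Marker lists of cell types, which the study drew from single cells, were read in the same way. All 18 neurosecretory cell markers were higher in uncut larvae than in oral ends and 17 were lower than in aboral ends, and their median position was 0.412 and 0.438 in the uncut replicates. Of 26 QYFamide neuron markers, 18 were lower than in aboral ends and 16 higher than in oral ends. Of 20 GLWamide neuron markers these counts were 12 and 13, and of 14 HFRIamide neuron markers tested they were 12 and 12. The 10 PF1 secreted proteins, abundant products of the neurosecretory cells, had 9 and 10. In none of these 5 lists was a gene called against recombined larvae, with or without the block, or outside all end libraries.

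The other marker lists differed less between the ends. Of 716 i-cell markers, genes of the stem cells and of dividing cells in a table that was cut short, 120 were higher and 1 lower in uncut larvae than in aboral ends, with 0 higher and 7 lower than in oral ends, and with the block 376 and 4, and 4 and 119. Against recombined larvae the list had a median log2 fold change of 0.05 with 550 members above 0, beside 50.8% of all genes. Summed over the list, uncut replicate 1 had 172660 CPM, under the midpoint of its aboral (154402) and oral ends (196447). Uncut replicate 2 had 189974 CPM, above the midpoint of its aboral (153231) and oral ends (191806). Of 800 muscle-enriched epidermis markers tested, 306 were above 0 against recombined larvae and the median was -0.03. With the block 16 were called lower, beside 0.494% of all genes. Both uncut libraries lay below all end libraries for 23 of the 800, beside 3.10% of all genes. This list, 800 of the 15599 genes tested, held 11 of the 55 genes named above. They included both bZIP genes, the C2H2 zinc finger gene, the Ras family gene and the 3 transporter genes. The phosphatase XLOC_006153 was among the i-cell markers. Of the 55, 12 were in any list, and all lists together held 1744 of 18755 gene models.

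Chaperones were near the recombined level. Among 17 chaperones, which fold proteins, 0 were called against recombined larvae and 0 lay outside the ends. The Hsp70 gene XLOC_044101 had 4214 and 5362 CPM in uncut larvae, 3627 and 4785 CPM in aboral ends and 4220 and 5574 CPM in oral ends, a log2 fold change of 0.09. The Hsp90 gene XLOC_006929 had 3205 and 3921 CPM in uncut larvae, 2461 and 3549 CPM in aboral ends and 3118 and 4203 CPM in oral ends, a log2 fold change of 0.11. In both genes replicate 2 was the higher in every group, and uncut larvae lay within the ends. The median of the list was 0.07, with 14 above 0.

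Housekeeping groups leaned slightly upwards in uncut larvae. Of 86 ribosomal protein genes 81 were above 0 with a median log2 fold change of 0.09, of 17 proteasome subunits 16 with a median of 0.06, and of 17 genes of the respiratory chain and rotary ATPases all 17 with a median of 0.11, beside 50.8% of all genes above 0. With shares at 42.8% aboral these medians were 0.07, 0.03 and 0.07. Summed over the ribosomal list, uncut replicate 1 had 87416 CPM, with 80054 in aboral and 101505 in oral ends of that replicate. Uncut replicate 2 had 99975 CPM, with 77505 in aboral and 96761 in oral ends. In each of these lists the summed level was under the midpoint of the ends in replicate 1 and above it in replicate 2. None of the genes of these lists was called against recombined larvae, with or without the block, or lay outside all end libraries.

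Ciliary and axonemal proteins leaned the other way, with 31 of 35 below 0 and a median of -0.06, which became -0.01 with shares at 42.8% aboral. Against aboral ends 22 of the 35 were lower in uncut larvae and against oral ends 13 were higher, or 32 and 30 with the block. MSTRG.7757, with a dynein-related AAA domain, was the only member below all end libraries, at 5.13 and 4.08 CPM in uncut larvae and 5.26 to 7.32 CPM in the ends, a log2 fold change of -0.50 (edgeR adjusted p = 0.378 with the block).

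In the remaining lists no gene was called against recombined larvae without the block, and with it 1 was. These lists were DNA replication genes (23), actin cytoskeleton and muscle proteins (19), redox and detoxification enzymes (37), secreted metalloproteases of the astacin and reprolysin families (15), lipoxygenases (8), G protein-coupled receptors (45), ion channels (41), innexins (6), green fluorescent proteins (4), collagens (5), homeodomain genes (13) and gland mucous cell markers (7). The called gene was the homeodomain gene XLOC_009244, at 45.0 and 65.4 CPM in uncut larvae, 65.6 and 94.6 CPM in aboral ends and 51.1 and 77.8 CPM in oral ends, a log2 fold change of -0.37 ± 0.22 (SE, n = 2 against 2, edgeR adjusted p = 0.027 with the block). Replicate 2 was the higher in every group of this gene, and within each replicate the uncut library was the lowest. Of 167 aboral epidermis markers, 1 was called higher and 1 lower with the block, and their median was 0.05.

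Many annotated receptors and channels differed along the axis. Of 45 G protein-coupled receptors, 25 were lower in uncut larvae than in aboral ends and 27 higher than in oral ends. Of 41 ion channels 25 were lower and 30 higher, where 7.48% and 5.78% of all genes were. The ends differed by at least 4-fold in 31 of these receptors and 23 of these channels. Both lists come from an annotation of 2100 of 18755 gene models and were chosen with earlier results known. The counts therefore describe these members and test nothing about the families. Medians against recombined larvae were -0.09 and -0.08, and -0.02 and 0.03 with shares at 42.8% aboral. Collagens, fibre proteins of the extracellular matrix, went the opposite way along the axis, with 4 of 5 higher than in aboral ends and 3 lower than in oral ends. Their median against recombined larvae was -0.01, and -0.12 with shares at 42.8% aboral.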

How the data were processed

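The authors sequenced total RNA as paired-end DNBseq libraries and deposited raw counts per gene model, made with STAR in its gene count mode on a chromosome-level Clytia assembly. The strand setting is not given in the sources used here, so reads of overlapping genes cannot be separated. Counts give a precision set by depth, 30129270 to 31043438 per library. Names and Pfam domains came from the study's annotation tables, which cover 2100 gene models, of which 1645 had a domain. Of the file IDs, 0 matched the RefSeq gene table.

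Counts were analyzed in R 4.3.3 with edgeR 4.0.16 (filterByExpr by group, TMM, estimateDisp, legacy glmQLFit, glmQLFTest), two-sided, with Benjamini-Hochberg adjustment over 15599 genes and a threshold of 0.05. Recombined libraries were the rounded sum of the aboral and oral library of a replicate number at equal effective depth. Comparisons with each end used 1 fit of all 6 libraries. DESeq2 1.42.0 was an alternative. Standard errors and intervals came from the quasi-likelihood fit, and each CPM-scale position was computed on group means. Scripts were tested on simulated data, where fits with the replicate block made false calls above the nominal rate.

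Same-numbered libraries were taken as paired, since the methods list the pieces and whole larvae of a biological replicate as a set. Replicate differences (log2 of CPM + 0.5) correlated across genes at r = 0.335 between uncut and aboral, 0.364 between uncut and oral and 0.500 between aboral and oral groups. With 2 pools a group, p-values rest on the spread between these pools, which edgeR moderates towards that of other genes. For recombined ends without the block, this borrowed part had 5.4 degrees of freedom beside 2 residual ones. With the block, p-values rest on the spread left after the replicate difference, with 1 residual degree of freedom. Genes were to be named if called against recombined ends without the block, outside all end libraries and at 10 CPM or more (the 10 largest in each direction, and the 12 largest with a name or domain), together with all axis, Wnt, neuropeptide, taurine and GABA genes and up to 4 called members of each other list. The members and lists were chosen with earlier results of these data known. The 10 files of other species were not used here.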

Additional observations from a re-analysis of the deposited data

How the results depend on the processing

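Every call against recombined ends depends on the model. Genes lower and higher in uncut larvae numbered 0 and 0 without the block, with RLE factors and without a filter on low counts, 31 and 0 in DESeq2, 2 and 0 with shares at the median position, 4 and 0 as a contrast with the arithmetic mean in the fit of 6 libraries, and 25 and 161 against the mean of the ends on the log2 scale. With the replicate block they numbered 77 and 4, 66 and 4 with shares at the median position, 46 and 2 in DESeq2 (chosen after seeing the data, like the next) and 85 and 2 in the fit of 6 libraries. Leaving out 1 library moved the counts without the block to 6 to 34 lower and 0 to 3 higher, and those of the blocked fit of 6 libraries to 397 lower and 296 higher without uncut replicate 1, 222 and 132 without uncut replicate 2, 91 and 17 without aboral replicate 1, 96 and 13 without aboral replicate 2, 62 and 0 without oral replicate 1 and 81 and 12 without oral replicate 2. Where 1 uncut library is left, it is assumed to vary like the other groups.

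Against aboral ends the replicate block gave 1870 higher and 2380 lower, and leaving out 1 library gave 220 to 834 higher and 299 to 1192 lower, least without uncut replicate 2. Against oral ends it gave 1748 and 927, and leaving out 1 library 559 to 806 higher and 69 to 164 lower, least without uncut replicate 1 (559) and uncut replicate 2 (69). RLE factors, no filter, DESeq2 and a fit of the 4 libraries compared moved none of these counts by over 1.5 times. The block changed no call of an axis, Wnt, neuropeptide, taurine or GABA gene other than Six3/6 and GABRB1-like against aboral ends and XLOC_000650 and XLOC_041060 against oral ends. Genes above all end libraries numbered 464 over all genes with a count. The position of aboral-high genes, 0.427 as the median of the mean of both uncut libraries, was 0.433 on total counts and 0.401 to 0.456 leaving out 1 library.

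A mean of the ends on the log2 scale lies below their arithmetic mean, and against it 26 named genes turned from below 0 to above 0. The log2 fold changes were 0.68 for FoxQ2a, 3.02 for FGFa1, 1.84 for Frizzled 5/8, 0.025 for XLOC_038055, 1.74 for XLOC_044794, 0.75 for XLOC_044272, 2.79 for XLOC_035748, 2.48 for pp2-GLWamide, 2.76 for pp14-FLFamide, 3.13 for pp8-RPRPamide, 0.57 for HFRIamide, 1.17 for TauDa, 1.38 for TauDb, 1.07 for BGT-1/SLC6A12, 1.74 for VIAAT/VGAT, 1.01 for GABBR2-like, 0.65 for XLOC_017006, 1.29 for MSTRG.3476 1.11 for XLOC_016427, 1.86 for Six3/6, 0.97 for Dickkopf, 0.24 for XLOC_017925, 0.015 for XLOC_040606, 0.43 for MSTRG.16443, 0.34 for pp11-GLWamide and 0.37 for pp9-QYFamide. XLOC_038055 and the last 7 were not called there.

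Under other settings 19 named genes changed sign in 38 values, none of them called. With shares at the median position, without and with the block, the values were 0.17 and 0.17 for Six3/6, 0.010 and 0.018 for Frizzled 5/8, -0.0012 and -0.0012 for the Wnt gene XLOC_001931, 0.035 and 0.035 for pp2-GLWamide, 0.036 and 0.039 for pp14-FLFamide, 0.13 and 0.14 for pp8-RPRPamide, 0.11 and 0.10 for TauDa, 0.013 and 0.011 for BGT-1/SLC6A12 and 0.041 and 0.038 for VIAAT/VGAT. Leaving out 1 library gave values on both sides of 0 for 13 named genes, -0.12 to 0.014 for Six3/6, -0.58 to 0.041 for Dickkopf, -0.019 to 0.012 for XLOC_044794, -0.23 to 0.11 for XLOC_044272, -0.17 to 0.10 for XLOC_017925, -0.13 to 0.040 for MSTRG.16443, -0.50 to 0.11 for pp11-GLWamide, -0.21 to 0.030 for pp8-RPRPamide, -0.38 to 0.15 for TauDa, -0.19 to 0.013 for GABRB1-like, -0.12 to 0.15 for XLOC_MITO, -0.26 to 1.00 for XLOC_007866 and -0.12 to 0.87 for XLOC_003257.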
